A study of Rattus norvegicus with 6 samples.

Results

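The genes described here are 34 genes of fatty acid oxidation and ketone body use in the rat aorta, taken by symbol from a fixed list. All 34 were among the 24005 gene symbols of the deposited table, and 32 of them were among the 11742 genes expressed highly enough to be tested. The remaining 2, Echs1 and Bdh1, had a mean under 1 FPKM (fragments per kilobase of gene and per fixed number of reads, a level scaled to gene length and to the library total). The list was drawn up by gene function, with earlier results of these data known.

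The samples were aortas of rats with chronic kidney disease. Every rat had lost 5/6 of its kidney mass in 2 operations that lay 1 week apart, and every rat ate a high-phosphorus diet with 1.2% phosphorus to speed up vascular calcification. Rats of the exosome group received engineered exosomes, named ANCR/E7-EXO, at 10 mg/kg by tail vein once in 5 days. The controls received normal saline, with 13 weeks given as the duration. Each group had 3 libraries, here called exosome 1 to 3 and saline 1 to 3. Both groups thus carry the same kidney lesion and diet. The labels give no strain, sex or age and do not say whether each library came from a separate rat. P-values therefore measure the spread between these libraries, which may be technical.

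Cells burn fatty acids in the mitochondrial matrix. Long-chain fatty acids are first joined to coenzyme A and carried across the inner membrane on carnitine. A cycle of dehydrogenation, hydration, a further dehydrogenation and thiolysis then shortens the chain, and the electron transfer flavoprotein passes the electrons to the respiratory chain. Ketone bodies, made mainly in liver, are turned back into acetyl-CoA in other tissues. The nuclear receptors PPAR-alpha and PPAR-delta sense fatty acids and drive many of these genes, and the pyruvate dehydrogenase kinases hold back the oxidation of glucose carbon. In the vessel wall smooth muscle, endothelium and the surrounding fat all use this pathway, and in bulk tissue fewer cells of a type and less RNA per cell cannot be told apart.

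Libraries held between 28063355 and 44561082 reads or read pairs, inferred from the steps of the FPKM values, and a tested gene of the list rested on at least 96 reads in every library. Smooth muscle markers were abundant, with Myh11 between 1463 and 1946 FPKM in the exosome libraries and between 1694 and 2109 FPKM in the saline libraries. The 6 smooth muscle markers summed to 20982, 14907 and 19102 FPKM in exosome 1, 2 and 3, against 21219, 14411 and 13468 FPKM in saline 1, 2 and 3. Several libraries stood apart. The 16 striated muscle markers summed to 61.5, 49.4 and 122.5 FPKM in exosome 1, 2 and 3, against 95.5, 48.4 and 60.7 FPKM in saline 1, 2 and 3, with Myh4 at 0 in every library. Exosome 3 stood out for genes of heart muscle, of which the examples were chosen after their values were seen: Myh7 was at 5.68 FPKM there and at 0.0225 to 0.0357 FPKM elsewhere, and Mb at 7.82 FPKM there and at 0.0614 to 0.285 FPKM elsewhere. The heat shock chaperone gene Hsph1, known from earlier results on these data, was at 217.9, 41.9 and 512.4 FPKM in exosome 1, 2 and 3, against 38.4, 35.5 and 83.5 FPKM in saline 1, 2 and 3. The 12 adipocyte markers summed to 537.0, 959.9 and 609.5 FPKM in the exosome libraries and to 487.6, 1456 and 547.1 FPKM in the saline libraries. Adipocyte markers were thus highest in saline 2, then in exosome 2. Mitochondrially encoded genes took 4.72%, 3.97% and 4.88% of gene reads in exosome 1, 2 and 3, against 4.56%, 6.87% and 4.97% in saline 1, 2 and 3. The 6 endothelial markers summed to 124.0 to 192.5 FPKM with exosomes and 76.9 to 106.3 FPKM with saline, and the 6 macrophage markers to 89.6 to 106.6 FPKM with exosomes and 62.8 to 72.4 FPKM with saline. Groups were apart upwards for 4 of the 6 endothelial and 4 of the 6 macrophage markers, beside 9.4% of all tested genes. None of the marker genes of the lists in this paragraph passed the adjusted threshold in limma, and their part in the results below was not tested.

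The question asked of the genes was whether the fatty acid oxidation programme of the calcifying aorta differed after exosome treatment. Most of the enzymes stood slightly lower with exosomes. Of 32 tested genes, 27 had a negative log2 difference and 5 a positive one (Acadl, Cpt1a, Ech1, Pdk4 and Ppard). Their median difference, exosome minus saline on the log2(FPKM + 1) scale, was -0.23, where the median of all tested genes was -0.07 and 60.7% of them were negative. The count of negative genes was 26 with libraries rescaled to equal sums, 24 with rescaling to the median of ratios and 25 with quantile normalization. These rescalings also moved the balance over all tested genes: at an unadjusted p under 0.05 limma had 792 higher and 1085 lower on the deposited scale, 956 and 741 with equal sums, 1138 and 839 with the median of ratios, and 1047 and 898 with quantile normalization.

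None of the 32 genes passed an adjusted p of 0.05 in limma, fitted to all tested genes with Benjamini-Hochberg adjustment, and none passed in limma-voom on recovered reads. The lowest adjusted p among them was 0.256, for Decr1. Among all tested genes a single one passed, which is 0.00852% of those tested: the transcription factor gene Zbtb16, at 48.5 ± 3.58 FPKM with exosomes and 10.8 ± 1.76 FPKM with saline (SD, n = 3 each). At an unadjusted p under 0.05 the list held 1 higher gene and 6 lower genes, against background shares of 6.75% of all tested genes higher and 9.24% lower. Acadl was the higher gene, and the lower ones were Decr1, Oxct1, Decr2, Slc25a20, Acot2 and Acads. The groups did not overlap for 1 higher gene, Acadl, and for 4 lower genes, Decr1, Decr2, Hadhb and Cpt1b, where 9.4% of all tested genes were apart upwards and 11.7% downwards.

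**Figure D1:**
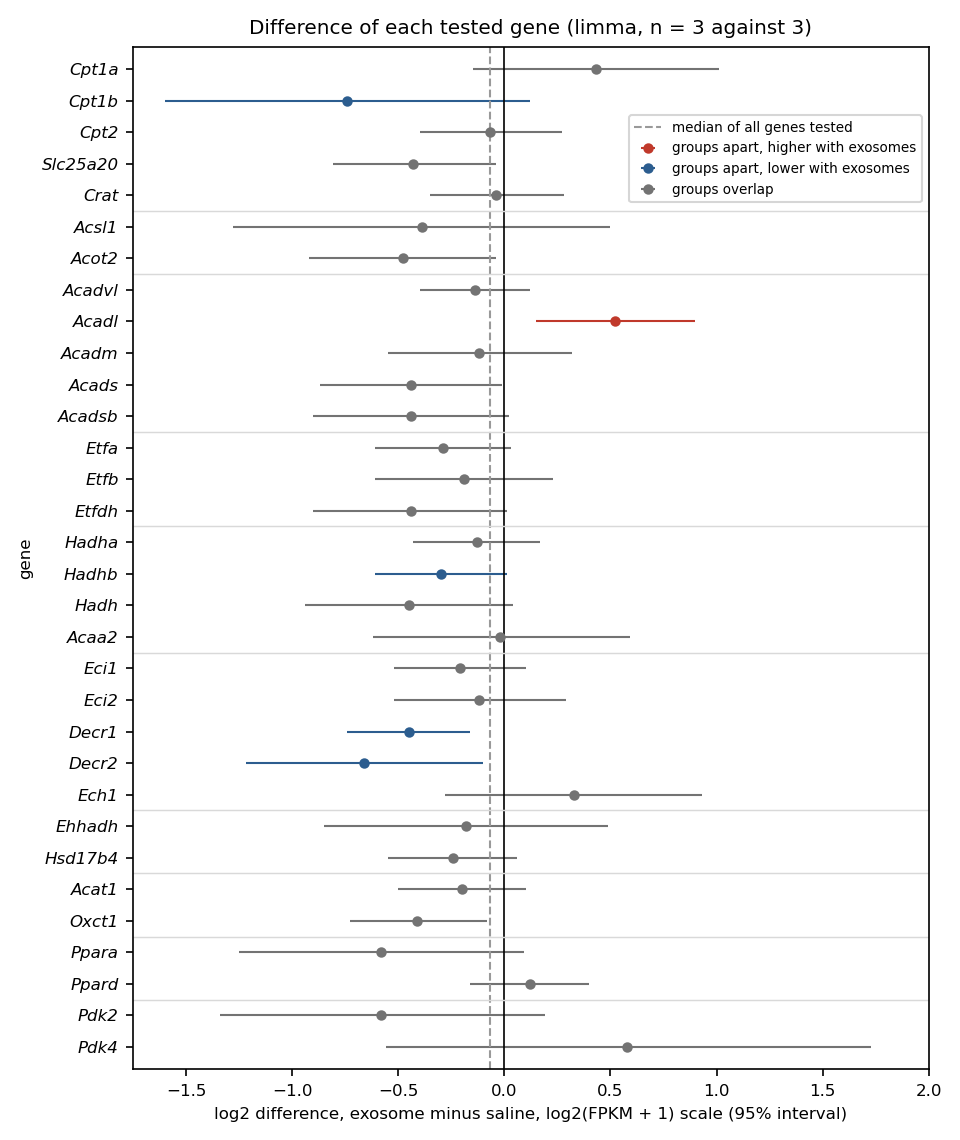
Log2 difference of each of the 32 tested genes, exosome minus saline, on the log2(FPKM + 1) scale (x axis), with limma's 95% interval as a bar; colour shows whether the 3 exosome and 3 saline values overlap. Most points lie between 0 and -0.66, Acadl lies at 0.52 with its interval above 0, and Pdk4 has the widest interval, -0.56 to 1.73.

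The carnitine shuttle brings long-chain acyl groups into mitochondria. Cpt1a, the widely expressed form of its rate-limiting first enzyme, was at 16.5, 30.7 and 16.2 FPKM in the exosome libraries and at 14.0, 13.1 and 17.5 FPKM in the saline libraries. Only exosome 2 lay clear of the saline range, and the log2 difference of 0.43 ± 0.25 (SE) had a 95% interval from -0.15 to 1.01 (limma adjusted p = 0.401). Without exosome 2 the Cpt1a difference was 0.14. Cpt1b, the muscle and brown fat form, stood lower, at 0.910, 1.57 and 2.03 FPKM with exosomes and 2.04, 6.45 and 2.06 FPKM with saline. The groups for Cpt1b were apart only narrowly, since exosome 3 nearly met saline 1, and saline 2 alone reached 6.45 FPKM (log2 difference -0.74 ± 0.37 SE, adjusted p = 0.354 in limma). Without saline 2 that difference was -0.31. The brown fat gene Ucp1 was also highest in saline 2, with 0.364, 0.0594 and 0.973 FPKM in the exosome libraries and 1.07, 15.0 and 0.515 FPKM in the saline libraries, and its part in the Cpt1b value was not tested. Among the other listed brown fat genes, Cox8b and Otop1 were also highest in saline 2. Cox8b was at 3.59 FPKM there and at most 0.422 FPKM elsewhere, and Otop1 at 1.25 FPKM there and at most 0.515 FPKM elsewhere. Both lay too low to be tested. Cidea, Dio2 and Cox7a1 were not highest in saline 2, although Cidea was only slightly lower there than in saline 3, its highest library.

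Slc25a20, the carrier that swaps acylcarnitine for carnitine across the inner membrane, was at 16.9, 20.6 and 13.9 FPKM with exosomes and 19.9, 24.7 and 25.1 FPKM with saline. Exosome 2 overlapped saline 1. Slc25a20 had a log2 difference of -0.43 ± 0.16 (SE, adjusted p = 0.291 in limma). Cpt2, which releases the acyl group inside the matrix, averaged 7.40 ± 0.572 FPKM with exosomes and 7.85 ± 1.37 FPKM with saline (SD, n = 3 each). Crat, the carnitine acetyltransferase, averaged 15.2 ± 2.11 FPKM with exosomes and 15.5 ± 1.55 FPKM with saline (SD, n = 3 each). Both genes differed by less than their spread, and their 95% intervals ran from -0.40 to 0.27 for Cpt2 and from -0.35 to 0.28 for Crat on the log2 scale.

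Acsl1, which activates long-chain fatty acids to acyl-CoA and is abundant in fat, was at 25.7, 41.9 and 24.8 FPKM with exosomes and 26.8, 73.9 and 30.8 FPKM with saline. Its saline mean rested on saline 2, since the log2 difference was -0.39 over all 6 libraries and 0.05 without that library. Acot2, a mitochondrial thioesterase that undoes the activation, was at 2.98, 4.25 and 2.38 FPKM with exosomes and 4.16, 4.89 and 5.29 FPKM with saline (log2 difference -0.48 ± 0.19 SE, adjusted p = 0.297 in limma). Acot2 has close relatives in a gene cluster, so reads could be shared between copies.

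The acyl-CoA dehydrogenases open each turn of the cycle and differ by the chain length they prefer. Acadl, the long-chain enzyme, was the one gene of the list that stood higher in all exosome libraries, at 98.3, 87.7 and 116.4 FPKM, against 70.9, 81.5 and 57.7 FPKM with saline. All exosome values lay above all saline values. The ratio of the means was 1.44 and the log2 difference 0.52 ± 0.16 (SE), with a 95% interval from 0.15 to 0.90 (adjusted p = 0.262 in limma). Exosome 3, which carried the heart muscle genes, was the highest library for Acadl, and without it the difference was 0.42. The difference of Acadl ran from 0.33 to 0.64 in the 19 alternative fits. Leaving out libraries could not turn its sign, since the groups do not overlap.

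The other dehydrogenases did not share that direction. Acadm, for medium chains, was at 55.7, 74.7 and 80.1 FPKM with exosomes and 65.3, 94.1 and 69.4 FPKM with saline. Acadvl, for very long chains, averaged 40.1 ± 4.26 FPKM with exosomes and 44.1 ± 2.26 FPKM with saline (SD, n = 3 each). Acadm overlapped broadly, while for Acadvl exosome 1 and 3 lay under every saline library and exosome 2 did not. Acads, for short chains, was at 6.03, 8.75 and 5.34 FPKM with exosomes and 8.06, 9.93 and 9.87 FPKM with saline. Acadsb, which also handles branched chains from isoleucine, was at 19.1, 27.4 and 16.1 FPKM with exosomes and 24.2, 28.6 and 31.8 FPKM with saline. Acads and Acadsb showed the same arrangement of libraries as Acadvl, and the log2 difference was -0.44 for each (adjusted p = 0.309 for Acads and 0.324 for Acadsb in limma).

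Because FPKM is scaled to length, levels of these enzymes can be set side by side, but only roughly, since the counting and annotation are not named. Acadl had the highest mean FPKM of the 5 dehydrogenases in the exosome group, 100.8, and Acadm the highest in the saline group, 76.3. The ratio of its FPKM to that of Acadm was 1.76, 1.17 and 1.45 in exosome 1, 2 and 3, against 1.08, 0.866 and 0.832 in saline 1, 2 and 3. The ratio to Acadvl was 2.54, 1.95 and 3.16 with exosomes and 1.70, 1.76 and 1.30 with saline. Both ratios were higher in all exosome libraries than in any saline library. These ratios were chosen after the values were seen and carry no test.

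The electron transfer flavoprotein takes the electrons from these dehydrogenases. Its subunit genes Etfa and Etfb averaged 33.1 ± 4.41 and 28.8 ± 3.48 FPKM with exosomes, and 40.7 ± 5.08 and 33.4 ± 7.41 FPKM with saline (SD, n = 3 each). Etfdh, the oxidoreductase that hands the electrons on to ubiquinone, was at 15.1, 19.4 and 12 FPKM with exosomes and 18.4, 25.9 and 19.7 FPKM with saline. The 3 log2 differences were -0.29 for Etfa, -0.19 for Etfb and -0.44 for Etfdh, and exosome values overlapped saline values for each of them. The lowest adjusted p of the 3 was 0.321 in limma.

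The later steps of the cycle are shared between a trifunctional complex on the inner membrane, encoded by Hadha and Hadhb, and soluble enzymes. Hadhb, the thiolase subunit, was at 54.6, 59.5 and 52.0 FPKM with exosomes and 62.3, 81.9 and 63.0 FPKM with saline. The groups did not overlap, and the log2 difference was -0.30 ± 0.13 (SE, adjusted p = 0.316 in limma). Hadha, the subunit with hydratase and dehydrogenase activity, was at 49.7, 57.2 and 46.8 FPKM with exosomes and 49.6, 63.4 and 55.3 FPKM with saline, and these ranges overlapped. The FPKM ratio of Hadha to Hadhb was 0.910, 0.961 and 0.900 in the exosome libraries and 0.797, 0.774 and 0.878 in the saline libraries, so it was higher in all exosome libraries than in any saline library. It too was chosen after the values were seen and has no test.

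Hadh, the soluble hydroxyacyl-CoA dehydrogenase, was at 21.8, 28.4 and 19.2 FPKM with exosomes and 23.8, 39.1 and 33.7 FPKM with saline (log2 difference -0.45 ± 0.21 SE, adjusted p = 0.337 in limma). Acaa2, the soluble thiolase, was nearly level, at 29.7 ± 8.41 FPKM with exosomes and 30.2 ± 8.85 FPKM with saline (SD, n = 3 each). Echs1, the short-chain enoyl-CoA hydratase, was barely detected for an enzyme of this pathway. It was listed at 0.239, 1.05 and 0.368 FPKM with exosomes and 0.632, 0.715 and 0.865 FPKM with saline, from 12 to 43 reads, and was outside the test.

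Unsaturated fatty acids need helper enzymes that move or reduce their double bonds. Decr1, the mitochondrial dienoyl-CoA reductase, was at 15.4, 19.0 and 17.0 FPKM with exosomes and 21.6, 26.6 and 23.1 FPKM with saline. The groups were fully apart, the ratio of the means was 0.720 and the log2 difference was -0.45 ± 0.12 (SE), with a 95% interval from -0.74 to -0.16. Decr1 had the smallest p of the list and still missed the threshold (adjusted p = 0.256 in limma). Across the alternative fits its difference stayed between -0.60 and -0.31.

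Decr2, the peroxisomal counterpart of Decr1, was at 3.65, 5.66 and 3.29 FPKM with exosomes and 5.71, 6.17 and 9.85 FPKM with saline. Exosome 2 nearly met saline 1, so the separation of the groups was narrow (log2 difference -0.66 ± 0.24 SE, adjusted p = 0.288 in limma). The isomerase genes Eci1 and Eci2 averaged 35.3 ± 5.07 and 16.9 ± 3.80 FPKM with exosomes, and 40.9 ± 3.50 and 18.2 ± 2.35 FPKM with saline (SD, n = 3 each). Ech1, a dienoyl-CoA isomerase, went the other way in 1 library: it was at 65.7, 121.0 and 69.7 FPKM in exosome 1, 2 and 3, against 51.8, 66.6 and 80.9 FPKM in saline 1, 2 and 3. Exosome 1 and 3 lay inside the saline range. Its log2 difference of 0.33 was 0.05 without exosome 2 and 0.16 without saline 1.

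Peroxisomes run their own shortened cycle. Hsd17b4, the bifunctional enzyme for branched and very long chains, averaged 29.5 ± 4.15 FPKM with exosomes and 34.9 ± 3.14 FPKM with saline (SD, n = 3 each), with a log2 difference of -0.24 and a 95% interval from -0.55 to 0.06. Ehhadh, the bifunctional enzyme that PPAR-alpha ligands induce in rodent liver, was at 1.29, 3.26 and 1.07 FPKM with exosomes and 1.63, 2.17 and 2.53 FPKM with saline. Exosome 2 was the highest of all 6 libraries for Ehhadh and exosome 1 and 3 were the lowest, so the group means hide opposite deviations.

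Of the 3 genes of ketone body use, Oxct1 and Acat1 were expressed highly enough to be tested. Oxct1, the transferase that commits acetoacetate to oxidation outside the liver, was at 79.2, 65.0 and 63.2 FPKM with exosomes and 97.1, 100.1 and 78.7 FPKM with saline. Exosome 1 just overlapped saline 3. The log2 difference was -0.41 ± 0.14 (SE) with a 95% interval from -0.73 to -0.08 (adjusted p = 0.283 in limma), and it stayed between -0.51 and -0.21 in the alternative fits. Acat1, the thiolase of the last step, averaged 32.4 ± 4.14 FPKM with exosomes and 37.2 ± 3.38 FPKM with saline (SD, n = 3 each). Bdh1, which interconverts the main ketone bodies, lay at 0.197 to 0.293 FPKM with exosomes and 0.244 to 0.365 FPKM with saline, from 14 to 33 reads, too few to compare.

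**Figure D2:**
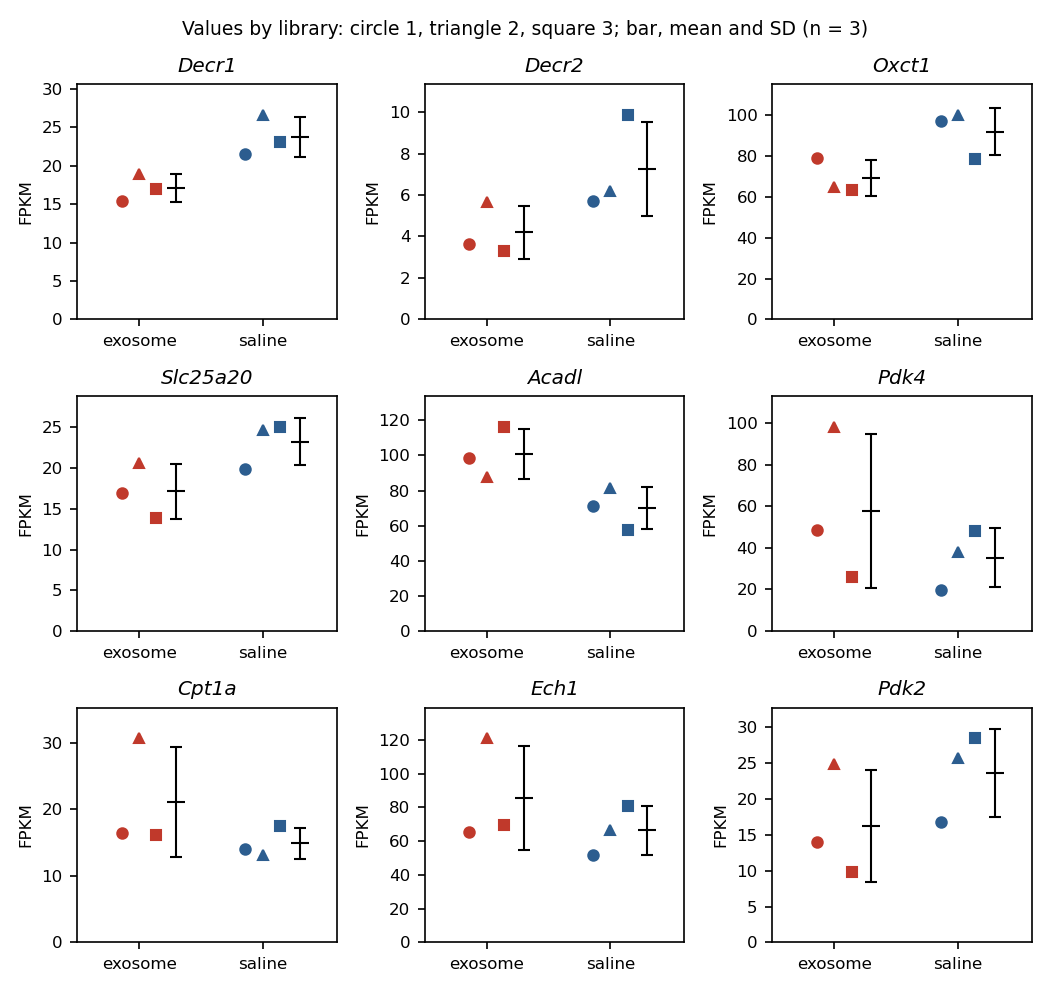
FPKM of 9 genes (y axes, from 0) in the 3 exosome and 3 saline libraries; symbols mark the library number, and the bar beside each group is the mean with its SD. Decr1 and Acadl have groups that are apart in opposite directions, while in Pdk4, Cpt1a and Ech1 the triangle of exosome 2 lies above every other library.

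The receptors that drive the pathway differed from each other. Ppara, which encodes PPAR-alpha, was at 1.95, 4.37 and 1.75 FPKM with exosomes and 3.44, 5.73 and 3.87 FPKM with saline. Exosome 1 and 3 lay under every saline library and exosome 2 lay among them (log2 difference -0.58 ± 0.29 SE, adjusted p = 0.353 in limma). Ppard, which encodes PPAR-delta, was steady in the exosome group, at 6.32, 6.41 and 6.33 FPKM, against 5.82, 5.15 and 6.36 FPKM with saline.

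The pyruvate dehydrogenase kinases hold back the entry of glucose carbon, and Pdk4 had the largest standard error of the list. Pdk4, a fasting-responsive gene that PPARs and glucocorticoids induce, was at 48.8, 98.4 and 26.1 FPKM with exosomes and 19.8, 38.1 and 48.0 FPKM with saline. Its log2 difference of 0.58 had a standard error of 0.49 and a 95% interval from -0.56 to 1.73 (adjusted p = 0.548 in limma). It was 0.11 without exosome 2, 0.23 without saline 1 and 1.04 without exosome 3. Pdk2, the constitutive kinase, was at 14.0, 24.9 and 9.87 FPKM with exosomes and 16.8, 25.7 and 28.5 FPKM with saline. The balance of the kinases leaned further to Pdk4 with exosomes: its FPKM was 3.49, 3.95 and 2.65 times that of Pdk2 in exosome 1, 2 and 3, against 1.18, 1.48 and 1.68 times in saline 1, 2 and 3. That ratio was also chosen after the values were seen, and its groups do not overlap.

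The libraries of each group differed from each other in a common way. Within the exosome group, exosome 2 was the highest library for 28 of the 32 tested genes (87.5%), where it was highest for 57.1% of all tested genes. Exosome 3 was the lowest for 24 of 32 (75.0%), against 46.0% of all tested genes. Within the saline group, saline 1 was the lowest for 27 of 32 (84.4%, against 46.2% of all tested genes). The mean deviation of the 32 genes from their own means, in log2 units, was -0.21, 0.19 and -0.30 in exosome 1, 2 and 3, and -0.11, 0.27 and 0.15 in saline 1, 2 and 3. The exosome 2 score therefore lay above saline 1 and saline 3, and exosome 1 and 3 lay below all saline libraries. Exosome 1, exosome 3 and saline 1, with the negative scores, had the highest smooth muscle sums given above. Acta2, Tagln and Cnn1 were each highest in those libraries, while Myh11, Smtn and Lmod1 did not share that order. Lmod1 was lowest there, at 195.1, 202.8 and 218.7 FPKM, against 234.2 to 294.6 FPKM in the other libraries. A link between smooth muscle markers and the scores was not tested.

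**Figure D3:**
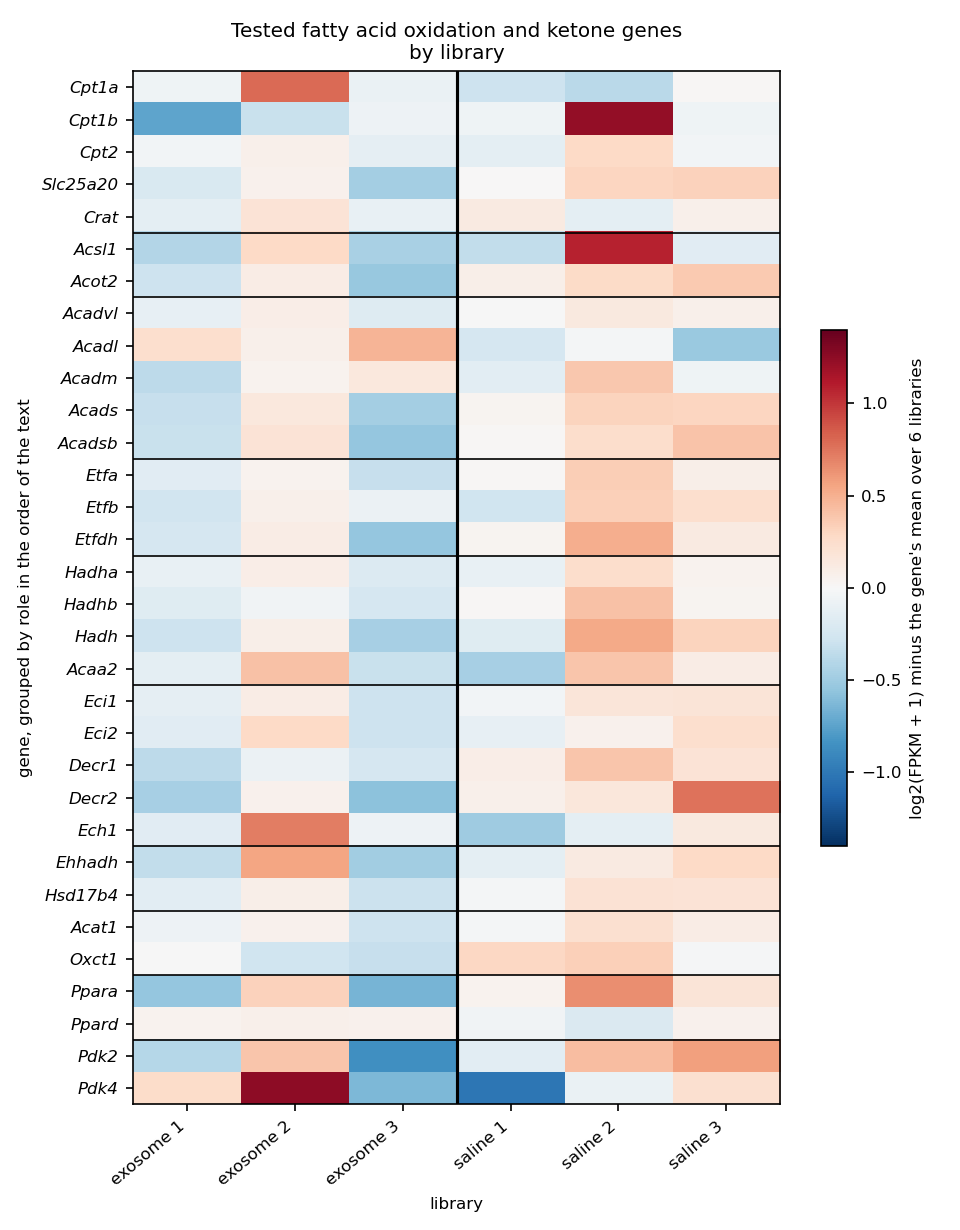
Log2(FPKM + 1) of each tested gene minus its mean over the 6 libraries (colour, red above and blue below), with genes in rows grouped by role and libraries in columns, exosome on the left. Exosome 1 and 3 are mostly blue, exosome 2 and saline 2 mostly red, and Acadl runs against its neighbours.

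The excess of exosome 2 over its group was uneven among the genes. Its FPKM was 2.76 times the mean of exosome 1 and 3 for Ehhadh, 2.63 times for Pdk4, 2.37 times for Ppara, 2.09 times for Pdk2, 1.88 times for Cpt1a and 1.79 times for Ech1. The median over the 32 tested genes was 1.30, and over all tested genes 1.11. The enzymes of the cycle spread widely around that median, with 1.57 for Acaa2, 1.55 for Acadsb, 1.54 for Acads and 1.39 for Hadh, but 1.19 for Hadha, 1.12 for Hadhb and 1.10 for Acadm. Oxct1 (0.912) and Acadl (0.817) stood lower in exosome 2 than in exosome 1 and 3 on average. Echs1, outside the test, had the highest ratio of all 34 genes, 3.45. Exosome 2 also differed from exosome 1 and 3 in the sums of adipocyte markers and of smooth muscle markers and in Hsph1, as given above. The part of each in these values was not tested.

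Saline 2 stood out in other genes. Its FPKM was 3.15 times the mean of saline 1 and 3 for Cpt1b and 2.56 times for Acsl1, but 1.12 times for Pdk4 and 0.829 times for Cpt1a. The median over the 32 tested genes was 1.14 and over all tested genes 0.988. The 3 brown fat markers that could be tested, of 8 listed, also had negative differences, and Elovl3 and Zic1 were at 0 in every library. The brown fat markers summed to 34.1, 47.2 and 34.7 FPKM with exosomes and 34, 71.0 and 53.0 FPKM with saline. Without saline 2 the list still had 23 of 32 genes with a negative difference.

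**Figure D4:**
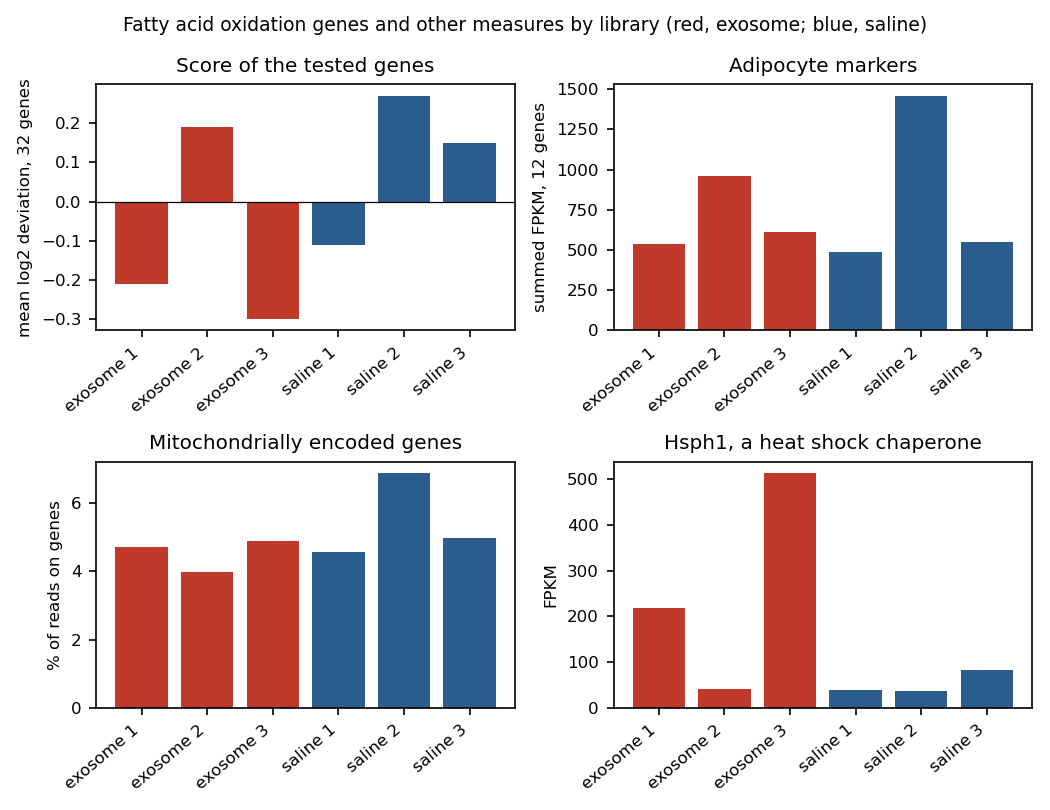
Bars show 4 measures in each library (x axes, red exosome, blue saline): the mean log2 deviation of the 32 tested genes, the summed FPKM of 12 adipocyte markers, the percentage of gene reads from mitochondrially encoded genes, and the FPKM of Hsph1. Exosome 2 and saline 2 have the highest gene scores (0.19 and 0.27) and the highest adipocyte sums (959.9 and 1456 FPKM), while Hsph1 is high in exosome 1 and 3.

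Counts of genes that differed followed the library left out. Leaving out exosome 2 raised the lower genes at an unadjusted p under 0.05 to 15 of 32 and those with groups apart to 20, with none past the adjusted threshold in limma. The shares of all tested genes also went up in that fit, to 19.2% lower at that p and 33.5% apart downwards. Leaving out saline 1 gave 10 and 16 of the 32, beside 11.4% and 24.5% of all tested genes, and leaving out any of the other 4 libraries gave 1 or 2 lower genes at that p, beside 4.3% to 5.56% of all tested genes. With exosome 1 and 3 both left out, 15 of the 32 differences were positive and 17 negative, and 54.7% of all tested genes were positive. That fit takes the spread from the saline libraries alone. Its differences were 1.54 for Pdk4, 1.01 for Cpt1a, 0.88 for Ech1 and -0.49 for Oxct1, none past the adjusted threshold in limma. Decr1 and Acadl kept their signs there, which was fixed in advance because their groups do not overlap.

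Neighbouring pathways gave the setting. Of 17 other mitochondrial acyl-CoA enzymes, all tested, 15 had a negative difference (median -0.35), and of 17 tested genes of peroxisomal oxidation also 15 (median -0.30). None of either list passed the adjusted threshold in limma. At an unadjusted p under 0.05 there were 5 lower in each, with 1 higher in the first, against the 9.24% and 6.75% of all tested genes. Hibch, an enzyme of valine breakdown, was at 6.18, 9.13 and 7.03 FPKM with exosomes and 11.1, 16.1 and 12.3 FPKM with saline. Acot11, a thioesterase, was at 5.79, 5.64 and 2.80 FPKM with exosomes and 7.80, 11.5 and 15.1 FPKM with saline. Both had groups apart, as did Amacr, the racemase of branched-chain oxidation, at 2.95, 2.48 and 1.74 FPKM with exosomes and 4.34, 4.55 and 4.48 FPKM with saline. Genes named from these lists and those below were picked for a small p, which favours groups apart. Over all tested genes 9.4% were apart upwards and 11.7% downwards.

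Mlycd, which breaks down malonyl-CoA, the inhibitor of the carnitine shuttle, was the opposite case. It was at 11.1, 10.9 and 10.5 FPKM with exosomes and 8.70, 7.78 and 8.71 FPKM with saline, with groups apart (adjusted p = 0.270 in limma). Mcee, of propionyl-CoA breakdown, averaged 9.87 ± 3.13 FPKM with exosomes and 15.2 ± 2.48 FPKM with saline (SD, n = 3 each). In peroxisomes, Pecr and Pex7 had log2 differences of -0.56 and -0.35, each with groups apart.

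Fatty acid supply genes had no common direction, with 9 of 20 higher, 11 lower and a median of -0.07. Slc27a4, a fatty acid transport protein, was at 10.5, 9.60 and 10.3 FPKM with exosomes and 9.01, 7.05 and 6.73 FPKM with saline. Acsl3, an activating enzyme tied to lipid droplets, was at 8.27, 9.22 and 9.41 FPKM with exosomes and 11.8, 13.0 and 10.9 FPKM with saline. Both had groups apart in opposite directions, with adjusted p of 0.285 and 0.268 in limma. Acss1, which activates acetate in mitochondria, and Fabp5, a fatty acid binding protein, had log2 differences of 0.51 and 0.75.

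Of the other ketone genes 7 of 8 were tested, with 2 higher, 5 lower and a median of -0.17, and none passed the adjusted threshold in limma. Slc16a7, a monocarboxylate transporter, was at 7.62, 9.71 and 6.44 FPKM with exosomes and 10.6, 16.2 and 15.8 FPKM with saline, with groups apart. Acat2 and Aacs, enzymes of the cytosol, had differences of -0.33 and -0.17.

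The partners and known targets of PPARs were mixed, with 7 of 18 tested genes higher, 11 lower and a median of -0.05. Ucp2, an uncoupling protein gene that fatty acids induce, had the smallest p of the pathway lists described here. It was at 14.4, 17.1 and 17.3 FPKM with exosomes and 10.1, 7.37 and 9.37 FPKM with saline, a ratio of the means of 1.81 with groups apart. Ucp2 differed by 0.80 ± 0.14 log2 units (SE, adjusted p = 0.222 in limma). Klf15, a glucocorticoid-responsive regulator of lipid and amino acid use, was at 33.6, 50.7 and 24.6 FPKM with exosomes and 20.5, 18.1 and 26.1 FPKM with saline, and overlapped. Lpin1, a PPAR coactivator, and Prkaa2, a catalytic subunit of AMP-activated kinase, had differences of -0.59 and 0.24.

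Genes of glucose carbon entry leaned the same way as the oxidation enzymes. Of 12 tested genes of the pyruvate dehydrogenase complex and its regulators 11 were lower (median -0.21), with 3 at an unadjusted p under 0.05 and none past the adjusted threshold in limma. Over all tested genes 60.7% were negative and 9.24% lower at that p. Pdp2, the phosphatase that opposes the kinases, was at 4.0, 4.0 and 3.24 FPKM with exosomes and 6.17, 9.58 and 6.20 FPKM with saline, with groups apart (log2 difference -0.79 ± 0.18 SE, adjusted p = 0.255). Mpc1, a subunit of the mitochondrial pyruvate carrier, was at 47.2, 49.6 and 44.9 FPKM with exosomes and 54.0, 64.5 and 53.1 FPKM with saline, also apart. Pdhb and Pdhx, of the complex itself, had log2 differences of -0.38 and -0.41.

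The tricarboxylic acid cycle, with 12 of 14 tested genes lower (median -0.19), and a list of respiratory chain and mitochondrial mass genes, with 16 of 19 lower (median -0.15), had smaller differences. Counts at an unadjusted p under 0.05 were 2 and 3, all lower, beside 9.24% of all tested genes, and none passed the adjusted threshold in limma. Idh3g averaged 34.8 ± 1.86 FPKM with exosomes and 42.1 ± 2.23 FPKM with saline (SD, n = 3 each). Ndufs1 and Cox5b, subunits of the respiratory chain, had differences of -0.37 and -0.29. All 3 of these genes, named for their small p, had groups apart. Groups were apart downwards for 4 of the 14 and 5 of the 19 tested genes, beside 11.7% of all tested genes. In the second list 1 gene was apart upwards, beside 9.4% of all. The median of the 32 oxidation genes, -0.23, thus lay close to those of other mitochondrial genes, and the difference between the lists was not tested.

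Promoter sequences were available for 28 of the 34 genes, as windows of 250 bases before to 50 bases after the RefSeq start on the GRCr8 assembly. PPARs bind, with a partner receptor, to 2 copies of the hexamer AGGTCA that lie 1 base apart, an arrangement called DR1. Allowing up to 2 mismatches on either strand, 5 of the 28 windows (17.9%) held a DR1 match, against 3.77% of all 33469 windows. They belonged to Acadvl, Slc25a20, Etfa, Crat and Echs1. The hexamer alone, which every exact DR1 contains, was in 21.4% of these windows and in 16.2% of all. The set of all windows was not limited to tested genes or matched for base composition, and GC box shares, given below, differ too. No difference in these shares was tested. A match is a description of the letters and not a site, and Acadl, Ech1 and Cpt1b were among the 6 genes with no window. The 3 windows below are shown because they hold the match in genes of the shuttle, the first dehydrogenation and the electron transfer step; capitals mark the DR1 match, on the minus strand in Etfa.
Slc25a20, chr8:118243323-118243622, plus strand: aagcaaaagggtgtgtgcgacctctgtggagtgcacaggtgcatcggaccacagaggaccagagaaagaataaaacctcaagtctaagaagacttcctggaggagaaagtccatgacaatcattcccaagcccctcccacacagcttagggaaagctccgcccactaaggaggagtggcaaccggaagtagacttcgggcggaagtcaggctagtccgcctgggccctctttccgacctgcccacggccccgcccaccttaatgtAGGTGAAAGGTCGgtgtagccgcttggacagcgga
Acadvl, chr10:55236656-55236955, minus strand: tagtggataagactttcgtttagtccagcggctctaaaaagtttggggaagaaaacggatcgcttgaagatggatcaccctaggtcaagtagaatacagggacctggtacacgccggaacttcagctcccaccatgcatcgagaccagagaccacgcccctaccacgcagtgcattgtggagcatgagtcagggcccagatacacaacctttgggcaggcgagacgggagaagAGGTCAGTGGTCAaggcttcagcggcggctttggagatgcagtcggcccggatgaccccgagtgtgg
Etfa, chr8:64787916-64788215, minus strand: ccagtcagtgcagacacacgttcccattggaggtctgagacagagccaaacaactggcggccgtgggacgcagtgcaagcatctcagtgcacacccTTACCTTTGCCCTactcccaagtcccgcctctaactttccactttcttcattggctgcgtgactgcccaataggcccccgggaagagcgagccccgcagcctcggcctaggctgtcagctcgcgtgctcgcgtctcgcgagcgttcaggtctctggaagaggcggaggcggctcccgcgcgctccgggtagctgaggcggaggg

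Counted from the start, the match began at base 16 in Slc25a20, at -17 in Acadvl with 1 mismatch, and at -154 in Etfa. These genes had log2 differences of -0.43, -0.14 and -0.29, and exosome 2 over the mean of exosome 1 and 3 was 1.34, 1.19 and 1.22. Of the tested genes with a window, the 5 with the highest such ratios (Ehhadh, Pdk4, Ppara, Pdk2 and Cpt1a) held no DR1 match in it, while the untested Echs1, at a ratio of 3.45 from few reads, held one at -155. Sequence outside the windows was not searched, and a link between matches and these ratios was not tested. The GC box GGGCGG, read on both strands, was in 22 of the 28 windows (78.6%), against 33.1% of all windows, and the TATAAA box in 1 (3.57% against 14.2%). AGAACA, the hexamer that glucocorticoid receptors bind, was in 2 of the 28 windows (7.14%), against 20.7% of all. The sequence TCAAGGTCA, bound by estrogen-related receptors, was in 0 of the 28 and in 0.433% of all windows. The other motifs searched, also on both strands, were CCAAT in 39.3% against 37.5% of all windows, TGACGT in 17.9% against 7.94%, and GAANNTTC in 3.57% against 8.59%.

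Hadha and Hadhb, the subunits of the trifunctional complex, lie head to head on chromosome 6, with 300 bases between their starts, and their windows share 200 bases. The Hadha window is shown because this common stretch stands between the starts of both subunit genes; capitals mark its GC box, which lies in the shared bases, and a CCAAT box outside them, both on the minus strand.
Hadha, chr6:31907551-31907850, plus strand: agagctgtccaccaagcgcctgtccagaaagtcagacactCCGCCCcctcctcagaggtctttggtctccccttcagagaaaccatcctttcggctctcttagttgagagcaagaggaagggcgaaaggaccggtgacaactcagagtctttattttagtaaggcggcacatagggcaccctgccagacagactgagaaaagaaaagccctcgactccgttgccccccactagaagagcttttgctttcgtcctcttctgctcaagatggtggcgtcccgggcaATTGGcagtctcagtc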

How the data were processed

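RNA-seq of aorta was deposited by the authors as FPKM for 24005 gene symbols, with a column for each library. Per the labels' protocols, libraries were made from total RNA with a SMARTER mRNA-Seq kit. DESeq2 1.28.1 is named, per the submitters' processing notes, without the step it served. The sources used here name no aligner, counter, strand setting, build or annotation, so overlapping genes and close copies could not be separated.

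FPKM values were whole multiples of 1 step per gene and library. With library totals from microRNA hairpin lengths in RefSeq, whole reads within 0.02 were found for all 18430 genes above 0. The length of each gene was searched for as well. For genes above 0 in few libraries whole reads are thus easily found, and finding them is no check. Counting error is small for most genes described, and the number of libraries limits precision.

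The test was limma 3.58.1 (R 4.3.3) on log2(FPKM + 1), with trend, for 11742 genes with a mean of at least 1 FPKM, two-sided, Benjamini-Hochberg adjusted, threshold 0.05. This scale understates changes of low genes. Other settings were pseudocounts 0.1 and 0.01, other minimums (none, 5), rescalings, quantile normalization, moderation choices, library weights, a replicate block, voom, leave-outs and a threshold of 0.1. The fit was tested on simulated data. Python 3.11.15 and pandas 2.3.3 did the rest.

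Genes and lists were chosen with earlier results of these data known. All 34 genes were named, and of each other list up to 4 with the smallest p. Some genes that this rule names are not reported here. Of the other lists' symbols, 3 matched through RefSeq synonyms and Idh3b had no match and was not used here.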

Additional observations from a re-analysis of the deposited data

How the results depend on the processing

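Of 32 tested genes, 20 kept the sign of their difference under all alternatives, and 558 of 604 alternative values kept sign and side of the threshold. The moderation choices and the replicate block leave each difference unchanged by design, so part of these counts was fixed in advance. Library weights put 17 of the 32 genes and 3268 of all genes past the adjusted threshold, and 22 of the 32 lower at an unadjusted p under 0.05, beside 30.8% of all tested genes. The weights ran from 0.305 to 9.20, with exosome 1 dominant and convergence not reached. The weights turned Ech1 to -0.04.

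The samples share only numbers: same-numbered libraries' deviations correlated at 0.0682, 0.0958 and -0.165. A replicate block left 1 gene past the adjusted threshold and none of the 32, with 12 lower at an unadjusted p under 0.05, beside 8.33% of all tested genes.

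Lower genes at an unadjusted p under 0.05 numbered 6 in all 6 libraries and 3 with rescaling to equal sums. The shares of all tested genes were 9.24% and 6.31%. With equal sums Acaa2 turned to 0.02. Rescaling to the median of ratios gave 2 higher genes and 3 with groups apart upwards, beside 9.7% and 12.2% of all tested genes. It gave 5 lower genes and 6 apart downwards, beside 7.15% and 10.1%. Cpt2 was then at 0.0006, Crat at 0.03 and Acaa2 at 0.06. Quantile normalization put 2 of all genes past the threshold, with Cpt2 at 0.01 and Crat at 0.004.

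Leaving out 1 library gave 0 to 9 of all genes past the threshold, lost without exosome 1 or saline 3, and none of the 32. Lower genes ran from 1 without exosome 3 to 15 without exosome 2 (2 without exosome 1, saline 2 or saline 3, and 10 without saline 1), and those apart from 4 to 20. Higher genes ran from 1 to 2 and those apart from 1 to 3. Over all tested genes these fits had 4.3% to 19.2% lower and 14.1% to 33.5% apart downwards. They had 3.7% to 8.23% higher and 11.7% to 15.5% apart upwards. Differences ran from -0.25 to 0.17 for Acaa2, -0.22 to 0.04 for Acadm, -0.66 to 0.05 for Acsl1, -0.15 to 0.05 for Cpt2, -0.14 to 0.02 for Crat and -0.50 to 0.02 for Ehhadh.

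With exosome 1 and 3 both left out, 0 genes passed, 3 of the 32 were higher and 1 lower at an unadjusted p under 0.05, beside 3.4% and 2.5% of all tested genes. Groups were apart upwards for 9 and downwards for 5, beside 29.7% and 21.8%. Turned values were 0.03 for Cpt2, Acadvl, Hadha and Ppara, 0.17 for Crat, 0.08 for Acsl1, 0.41 for Acaa2, 0.22 for Eci2, 0.46 for Ehhadh and 0.10 for Pdk2. The cause of these moves was not tested.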
